A study of Mus musculus with 147 samples.

Results

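Immediate early genes are transcribed within minutes of a stimulus, without new protein synthesis, and their messages are short-lived. Fos-family proteins (Fos, Fosb, Fosl2) form dimers with Jun-family proteins (Jun, Junb, Jund) to make the transcription factor AP-1, Atf3 is a stress-induced factor of the same bZIP class that can pair with Jun proteins, Egr1 is a zinc-finger transcription factor, and Ier2 and Ier3 are small proteins named for their early induction. In dissociated tissue these genes are also known to be induced by the enzymatic and thermal steps that release cells. The 10 genes Fos, Fosb, Fosl2, Jun, Junb, Jund, Atf3, Egr1, Ier2 and Ier3 were taken by symbol from the gene column of the deposited tables, where all 10 of 10 were found among 35438 genes.

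Renin cells are specialised cells of the kidney arterioles that release renin, the enzyme that starts the angiotensin cascade. Single YFP-positive cells were sorted from the kidney cortex of adult C57BL/6 mice with an intact renin gene (Ren1c+/+ Ren1c-YFP, WT renin cells) and from mice without it (Ren1c-/- Ren1c-YFP, Renin-null cells), after digestion with collagenase A, trypsin and DNase I at warm temperature, and each cell was sequenced over the full length of its messages after capture in a Fluidigm C1 well. The YFP transgene of both genotypes reports activity of the Ren1c promoter region, so the sort took cells in which it was active, and cells of several mice were pooled. There were 51 WT wells and 96 Renin-null wells, the latter in libraries labelled YFP1 and YFP2 of 48 wells each. The labels tie no well to a mouse, so each genotype counted as 1 sample, no test between genotypes was possible, and the genotype cannot be told apart from its capture and library.

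Ren1 itself was at 96023 counts per 1000000 counts (CPM) in WT renin cells and at 0.135 CPM in Renin-null cells, where 16 of 96 wells had at least 1 count, as the genotype labels would have it. Akr1b7, a marker of renin cells, was at 4528 CPM in WT, 1700 CPM in YFP1 and 2271 CPM in YFP2, and the smooth muscle actin gene Acta2 was at 4349, 4244 and 4331 CPM. Summed markers of 7 other kidney cell types were all higher in YFP2 than in WT, while in YFP1 5 were higher and the endothelial and collecting duct markers were lower. The 8 macrophage markers summed to 0.985 CPM in WT, 4.54 in YFP1 and 35.8 in YFP2, with Cd14 the most abundant in YFP2 and C1qb and Adgre1 at 0 in both null libraries. The 6 endothelial markers summed to 38.3, 29.1 and 382 CPM, with Emcn the most abundant in YFP2 and Cdh5 at 0 in WT, and the 4 podocyte markers summed to 85.8, 142.4 and 815 CPM, with Podxl at 0 in WT. Proximal tubule markers summed to 26.1, 272 and 348 CPM, loop and distal tubule markers to 0.515, 189 and 43.0 CPM, collecting duct markers to 10.1, 2.96 and 81.4 CPM, and fibroblast markers to 171, 343 and 860 CPM. The part of other cells in the values below was not tested.

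Depth and the mitochondrial share of counts differed widely between wells, and also between the genotypes. Counts per well ranged from 26401 to 17124854 in WT (median 1525972) and from 3628 to 14505243 in Renin-null wells (median 4107950). The share from the 13 mitochondrially encoded genes ran from 1.62% to 79.8% in WT (median 60.4%) and from 0.832% to 81.5% in Renin-null wells (median 12.4%). At a limit of 25%, 17 WT wells were mitochondria-poor and 34 mitochondria-rich, while 60 Renin-null wells were poor and 36 rich, with 30 and 18 in each null library. Poor wells were also deeper, at a median of 10554700 counts against 1212200 for rich wells in WT and 6628480 against 841020 in the null cells, so that they held 75.7% of all WT counts and 89.05% of all null counts. Further, 4 pairs of Renin-null wells were nearly identical (r over 0.95 against 0.896 for the next pair), 3 of them across the YFP1 and YFP2 labels, and 2 YFP2 wells carried discordant index labels.

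The upstream sequences are shown for the short elements classically tied to immediate early induction. The windows below are the 250 bases before the transcription start given by RefSeq on GRCm38.p6, which held an entry for 8 of the 10 genes, and each is written 5′ to 3′ on the strand of its gene. Capitals mark TGACG, the core of the cyclic AMP response element bound by CREB and ATF proteins, or the 8-base AP-1 and ATF element TGACNTCA first described in the Jun promoter.
Fos (chr12:85473640-85473889, plus strand): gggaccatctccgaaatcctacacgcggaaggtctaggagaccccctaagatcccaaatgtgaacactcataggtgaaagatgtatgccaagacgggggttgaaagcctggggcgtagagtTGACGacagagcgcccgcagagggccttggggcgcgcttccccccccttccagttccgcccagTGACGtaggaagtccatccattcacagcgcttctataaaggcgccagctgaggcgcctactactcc
Jun (chr4:95052223-95052472, minus strand): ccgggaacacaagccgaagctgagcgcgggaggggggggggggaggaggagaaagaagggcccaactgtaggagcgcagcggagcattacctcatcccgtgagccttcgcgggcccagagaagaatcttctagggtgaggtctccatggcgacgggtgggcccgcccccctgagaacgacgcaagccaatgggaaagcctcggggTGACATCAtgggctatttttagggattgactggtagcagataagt
Fosb (chr7:19310046-19310295, minus strand): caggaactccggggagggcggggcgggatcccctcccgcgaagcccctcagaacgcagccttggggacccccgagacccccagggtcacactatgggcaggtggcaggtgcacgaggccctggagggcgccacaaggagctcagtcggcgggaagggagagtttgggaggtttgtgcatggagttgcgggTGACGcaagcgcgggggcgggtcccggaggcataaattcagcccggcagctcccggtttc
Junb (chr8:84978749-84978998, minus strand): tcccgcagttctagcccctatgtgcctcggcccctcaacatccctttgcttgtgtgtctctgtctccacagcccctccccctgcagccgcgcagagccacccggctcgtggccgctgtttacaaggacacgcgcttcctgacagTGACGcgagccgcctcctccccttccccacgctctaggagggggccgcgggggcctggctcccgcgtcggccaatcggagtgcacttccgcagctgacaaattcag
Atf3 (chr1:191183334-191183583, minus strand): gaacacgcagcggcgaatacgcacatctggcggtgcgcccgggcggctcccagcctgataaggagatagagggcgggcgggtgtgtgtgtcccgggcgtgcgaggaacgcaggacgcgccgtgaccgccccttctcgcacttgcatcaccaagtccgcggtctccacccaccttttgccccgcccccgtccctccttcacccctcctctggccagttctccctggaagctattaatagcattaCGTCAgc
TGACG on either strand was in 4 of the 8 windows (Fos, Fosb, Junb and Atf3), against 17.9% of 27025 promoter windows of the same length. Counted from the start, it lay at positions -129 to -125 and again at -66 to -62 in Fos, at -60 to -56 in Fosb, at -106 to -102 in Junb and at -7 to -3 in Atf3. TGACNTCA was in the Jun window alone of the 8, at -45 to -38, and in 7.59% of all windows. The 7-base AP-1 site TGANTCA was in 0 of 8 windows and in 6.87% of all, the Egr1 motif GCGNGGGCG in Fosl2 and Fosb and in 4.65% of all, the CArG box bound by serum response factor in 0 of 8 and in 1.399% of all, and TATAAA in Fos and in 13.0% of all. The RefSeq starts are not always those of the gene spans below: the Jund window (chr8:70697489-70697738) ends before the Jund span begins without adjoining it, and the Atf3 and Fosl2 windows lie within the spans of their genes, so these windows need not be the promoters used here. A match is a match of letters only, and TGACG and TGACNTCA were searched as separate words that can overlap. The counts cover these windows only. Sites more than 250 bases upstream, or near Egr1 and Ier2, which had no entry, were not searched.

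Where the genes lie bears on how their reads can be counted. In GRCm38, Fos spans chromosome 12 from 85473890 to 85477273, Fosb chromosome 7 from 19302696 to 19310051, Fosl2 chromosome 5 from 32135801 to 32157842 and Atf3 chromosome 1 from 191170296 to 191218039, each with 4 exons in its principal transcript. Jun (chromosome 4, 95049034 to 95052222), Junb (chromosome 8, 84974484 to 84978718), Jund (chromosome 8, 70698949 to 70700616) and Ier2 (chromosome 8, 84661331 to 84662852) have a single exon. Ier3 (chromosome 17, 35821684 to 35822923) and Egr1 (chromosome 18, 34859823 to 34864984) have 2 exons. By gene span, Junb overlaps the peroxiredoxin gene Prdx2 on the opposite strand, to which 42625 WT and 73060 null counts were assigned. Because the library kit does not mark strand, reads from any shared exon sequence cannot be told apart. Jun, Jund and Atf3 overlap by gene span the noncoding genes Junos, Gm11175 and Gm24748 on the opposite strand, for which there were no count values. Whether exons overlap was not checked.

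Fos was the most abundant of the 10 genes in every library, and its level in single wells ran over several orders of magnitude. Its messages were at 3043 CPM over the summed WT counts, 3398 CPM in YFP1 and 4206 CPM in YFP2, which ranked Fos 20th, 23rd and 16th among all genes by counts. Per well it ran from 2.05 CPM through a median of 125.8 to 7134 in WT, from 4.93 through 1062 to 19449 in YFP1 and from 7.89 through 1326 to 12681 in YFP2. All 51 WT wells and all 96 Renin-null wells had at least 1 Fos count, and the ranges of the 3 libraries overlapped. Even in the 5 WT wells with under 200000 counts, Fos had between 13 and 37 counts each. The WT wells were taken to share some counts through their sequencing indexes, so 1 count is a weak limit there. Low counts of a gene in a WT well need not come from its cell.

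Egr1 came second per summed count in WT and YFP2, at 2701 and 2305 CPM, and also in YFP1, at 1285 CPM. Its per-well values ran from 0 through a median of 60.3 to 10624 CPM in WT, from 0 through 599 to 6138 in YFP1 and from 0 through 510 to 15126 in YFP2. The summed level was thus highest in WT while the median well was lowest in WT. A few deep wells set the WT sum: well 3 alone held 24.0% of WT Egr1 counts, and 3 of 51 wells held at least 50% of them.

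Fosb, which makes a Fos-like partner of Jun proteins, was at 885 CPM in WT, 1066 in YFP1 and 1002 in YFP2. Its median wells were at 36.2, 304 and 333 CPM, with maxima of 4659, 8035 and 5664 CPM. Fosl2 of the same family was lower at 185, 195 and 180 CPM, and its median wells had the opposite order, 21.5 CPM in WT against 3.55 in YFP1 and 10.2 in YFP2. Fosl2 had a count in 48 of 51 WT wells (94.1%, exact Clopper-Pearson interval 83.8 to 98.8%) and 80 of 96 null wells (83.3%, 74.3 to 90.2%), shares whose intervals overlap and cover counting error over wells only, and after thinning every well to 62000 counts in 69.4% of 49 WT wells and 45.8% of 83 null wells. The limit on low counts in WT wells applies to these shares and to the WT median, as WT well 18 had 20150 Fosl2 counts. At or above 100 CPM were 9 of 51 WT wells (17.6%) and 28 of 96 null wells (29.2%).

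Of the Jun family, Jun was at 636, 565 and 575 CPM in WT, YFP1 and YFP2, a narrower spread between libraries than that of any other of the 10 genes but Fosl2. Its median wells were at 65.4, 131.2 and 221 CPM. Junb, whose protein is a weaker activator than Jun at many AP-1 sites, was at 182, 274 and 110 CPM, and its median wells were at 0.889, 9.70 and 15.1 CPM. The sums and the medians of Junb therefore gave different orders of the libraries. Jund, described elsewhere as the Jun gene kept on in resting cells, was the lowest of the 10 at 28.5, 13.2 and 25.2 CPM, with a count in 25 of 51 WT wells (49.0%) and 66 of 96 null wells (68.8%). After thinning to 62000 counts the Jund shares were 22.4% (11.8 to 36.6%) of 49 WT and 36.1% (25.9 to 47.4%) of 83 null wells, with overlapping intervals.

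Atf3 was at 682 CPM in WT, 969 in YFP1 and 1423 in YFP2, with median wells of 36.0, 18.7 and 67.1 CPM and maxima of 2076, 5023 and 8146 CPM. It had at least 1 count, a weak limit in WT, in 51 of 51 WT wells. It passed 1000 CPM in 6 of them, against 24 of 96 Renin-null wells. Ier2 was at 116.6, 46.7 and 50.7 CPM with medians near 1 CPM in all 3 libraries (1.05, 0.845 and 0.839), and Ier3, a regulator of cell survival, was at 62.2, 55.5 and 37.7 CPM with a median of 0 in each. Ier3 had a count in 24 of 51 WT wells and 38 of 96 null wells, and after thinning in 12.2% and 12.0%.

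**Figure D1:**
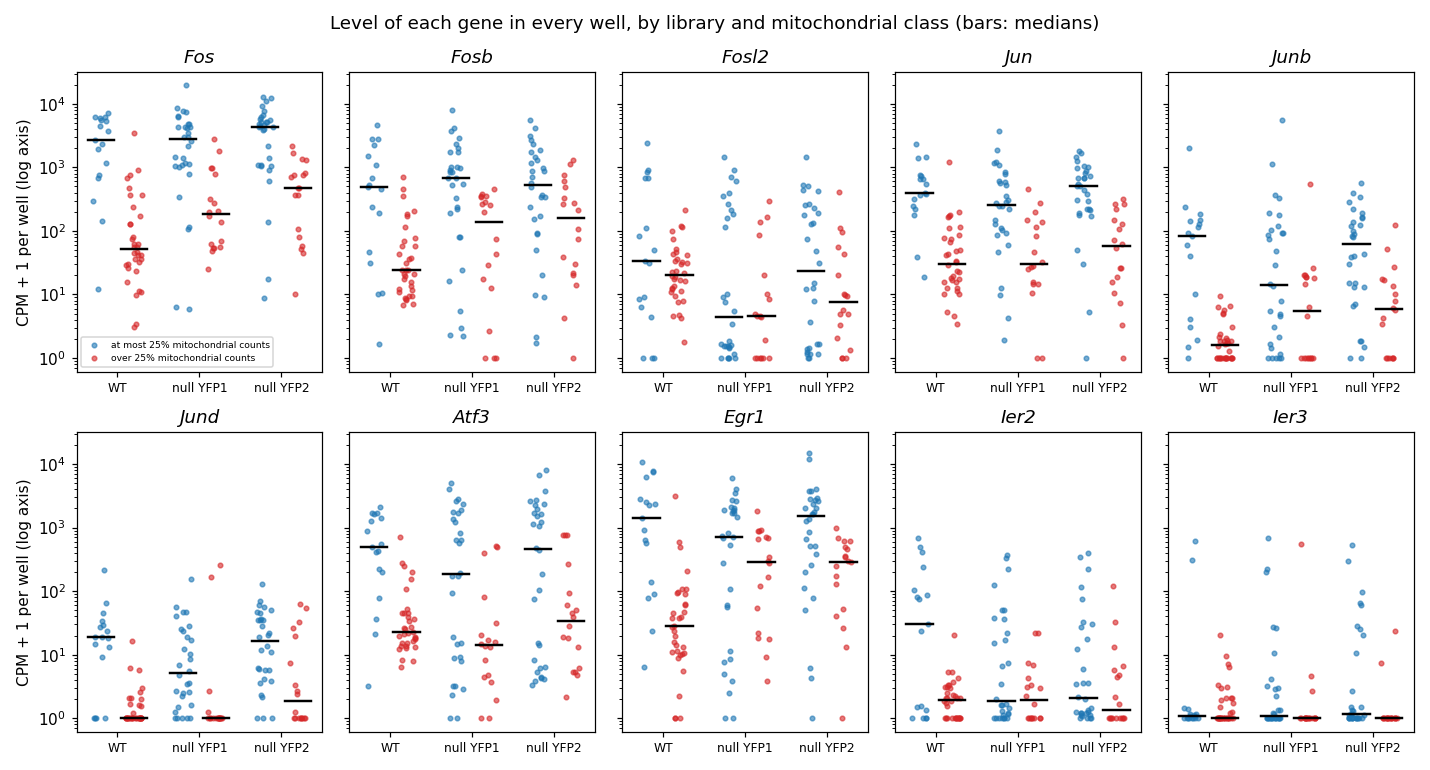
CPM + 1 on a log axis in every well for each of the 10 genes, by library (51 WT, 48 YFP1 and 48 YFP2 wells) and by mitochondrial class (blue, at most 25% of counts; red, over 25%), with medians as bars. Fos medians in poor wells lie at 2735, 2781 and 4389 CPM, and in every library each of the 10 genes spans from near 0 to a few high wells.

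Corrected for transcript length, Fos again stood first in each library, at 1444, 1612 and 1995 CPM per kilobase in WT, YFP1 and YFP2. Egr1 was second in WT (602 CPM per kilobase, with Atf3 next at 344), while Atf3 was second in YFP1 and YFP2 (489 and 717, with Egr1 at 287 and 514). Fosb (234, 282 and 265), Jun (199, 177 and 180) and Junb (100.7, 152 and 60.6) followed in that order in every library, and Jund was last (17.1, 7.91 and 15.1). Over the 3 libraries the ranges of Egr1 and Atf3 overlapped, as did those of Junb and Ier2 and of Ier2 and Ier3, while the ranges of Fos, Fosb, Jun, Fosl2 and Jund did not overlap those of their neighbours. The principal transcripts of Ier2, Junb and Jund had the highest G and C content of the 10, at 60.9%, 62.6% and 67.1%, higher than 96.9%, 98.52% and 99.8% of 21284 protein-coding genes, against 51.9% for Fos and a median of 49.1%. Fosl2 and Ier3, whose levels per kilobase were also low, were at 53.1% and 54.4%. The part of base composition in the levels was not tested.

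Between genotypes, the summed levels of 9 of the 10 genes differed by a log2 ratio of less than 1 in size. The log2 ratio of summed CPM, Renin-null over WT, was 0.83 for Atf3, 0.33 for Fos, 0.22 for Fosb, 0.02 for Fosl2 and 0.02 for Junb. It was -0.16 for Jun, -0.44 for Ier3, -0.53 for Jund, -0.55 for Egr1 and -1.25 for Ier2, the only gene of the 10 past a log2 ratio of 1 in size. At that limit 52.4% of 18720 genes were higher and 18.5% lower in Renin-null cells, so 1 of 10 lower and 0 of 10 higher stand beside those shares. The median of the 10 was -0.07 and the median of all genes 1.17, and 0 of the 10 lay above the latter. Among 8747 genes at or above 10 CPM in the higher genotype the median was 0.86 and again 0 of 10 exceeded it, and among 2471 genes at or above 100 CPM it was 0.40 and 1 of 8 exceeded it. Scaling by edgeR's trimmed mean of M values moved every gene down by the same 0.70, which left the all-gene median at 0.47 and put Fos at -0.37 and Fosb at -0.48.

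The sums and the single wells did not tell the same story. For 7 of the 10 genes the median well was higher in Renin-null cells, by far in Fos (1115 against 125.8 CPM), Egr1 (520 against 60.3) and Fosb (329 against 36.2). The mean over wells of log2(CPM + 1) was higher in Renin-null cells by 2.18 for Fos, 1.70 for Egr1, 1.599 for Junb and 1.39 for Fosb, and the difference was -0.998 for Fosl2. Over the 10 genes this difference had a median of 0.81, with 7 above the all-gene median of 0.13. Egr1 thus changed sign with the summary used: its log2 ratio was -0.55 for the sums and 0.30 for the unlogged mean over wells of CPM, where every well has the same weight. Mitochondria-rich wells were 34 of 51 in WT and 36 of 96 in Renin-null cells. Within poor wells the difference of mean log2(CPM + 1) was 0.19 for Fos, 0.22 for Fosb, -0.44 for Junb and -1.01 for Egr1. Within rich wells it was 1.92 for Fos, 1.02 for Fosb, 1.65 for Junb and 2.48 for Egr1.

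The ratios of the null libraries, which share the WT wells, differed in several genes. Junb was at 0.59 in YFP1 and -0.73 in YFP2, Egr1 at -1.07 and -0.23, and Jund at -1.11 and -0.18. The Junb ratios rested largely on single wells. Well 100 held 26589 of the 49784 Junb counts of YFP1, and WT well 5 held 22790 of the 36050 of WT. Against WT, YFP1 had 3 genes at or below -1 (Ier2 at -1.32, Jund and Egr1; 27.4% of all genes) and 0 at or above 1 (45.7% of all genes). YFP2 had Ier2 at -1.20 (22.7% of all genes) and Atf3 at 1.06 (49.8% of all genes). The members' medians were -0.04 and -0.16, with all-gene medians of 0.71 and 0.98. Between the null libraries, YFP2 over YFP1, Junb differed by -1.32 (28% of all genes at or below -1), Jund by 0.93 and Egr1 by 0.84. Each of these differences within 1 genotype was larger in size than the genotype ratio of every gene of the 10 but Ier2. The Junb difference rested largely on well 100 of YFP1.

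Within mitochondria-poor wells 9 of the 10 genes had a summed log2 ratio of less than 1 in size, while single-well medians of several genes were lower in Renin-null cells. Fos was at a median of 2735 CPM in 17 WT wells and 3967 in 60 Renin-null wells, Fosb at 486 and 624, Jun at 395 and 331, Egr1 at 1419 and 1076, and Atf3 at 499 and 318. Fosl2 was at 32.7 and 8.55, Junb at 82.3 and 39.2, and Jund at 17.8 and 8.43 CPM. The summed log2 ratio in these wells was 0.10 for Fos, -0.01 for Fosb, -0.34 for Jun, -0.76 for Egr1, -0.83 for Jund and 0.62 for Atf3. The difference of mean log2(CPM + 1) was -1.70 for Ier2, -1.23 for Atf3, -1.13 for Fosl2 and -1.01 for Egr1, so that Atf3 differed in sign between the 2 summaries. For Ier2 the summed log2 ratio was -1.58, with medians of 29.4 CPM in WT and 0.997 in Renin-null wells, and 13 of 17 against 49 of 60 wells had a count. The median over the 10 genes was -0.28, and 8 were below 0, while 65.9% of 18187 genes were above 0. Of the 10, 1 was at or below -1 and 0 at or above 1, beside 20.1% and 51.6% of all genes. The median of all genes in these wells was 1.12 and 0 of the 10 lay above it. Without the highest well of each gene in each genotype, Ier2 was at -1.49 and Egr1 at -0.67, while Fosl2 moved from -0.20 to 0.72 and Junb from -0.23 to 0.46.

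In mitochondria-rich wells the summed log2 ratio was above 0 for 8 of the 10 genes, beside 76.7% of all genes. The count of 8 rested in part on 1 well. Fos was at a median of 50.0 CPM in 34 WT wells and 298 in 36 null wells, Egr1 at 26.9 and 289, and Fosb at 23.3 and 152, while Fosl2 went the other way at 19.6 and 3.90 CPM. The summed log2 ratios were 1.33 for Fos and 1.34 for Fosb, with 6 of 10 at or above 1 beside 66.6% of 14574 genes, and their median of 1.33 compares with 2.49 for all genes. Without the highest well of each gene in each genotype these medians were 1.51 and 1.61. Several of the large ratios came from 1 well. A Renin-null well of the YFP2 library with 25.6% mitochondrial counts, just past the limit, which was nearly identical to a mitochondria-poor well, held 84.01% of the Ier2 and 96.1% of the Ier3 counts of the null rich wells, and without it Ier2 moved from 4.63 to 2.31 and Ier3 from 2.51 to -1.86. Atf3 moved from 0.69 to -0.09, so that 6 of the 10 were above 0 (with that well kept, 76.7% of all genes were). The medians of the 10 and of all genes without it were 0.86 and 1.20. WT well 40 held 75.6% of the Egr1 and 71.1% of the Jun counts of the WT rich wells, and without the highest well of each genotype Egr1 moved from -0.34 to 1.46 and Jun from -0.48 to 1.10.

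**Figure D2:**
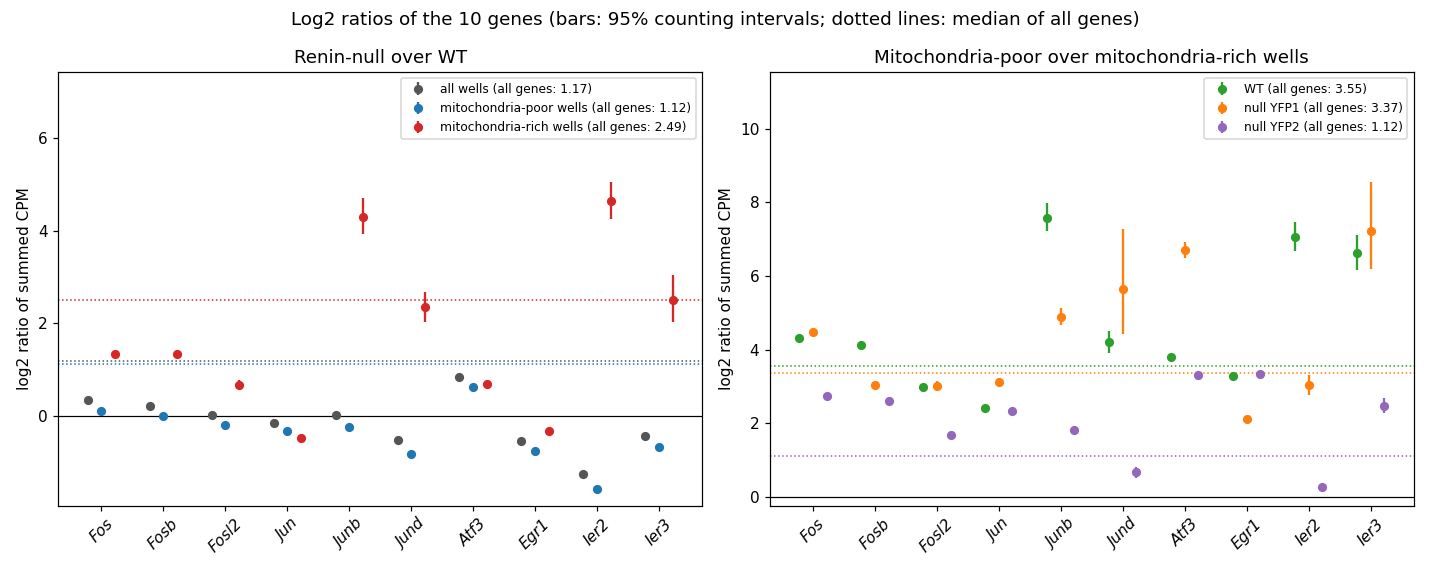
Log2 ratio of summed CPM for each gene, Renin-null over WT on the left (all wells, mitochondria-poor, mitochondria-rich) and mitochondria-poor over mitochondria-rich wells on the right (WT, YFP1, YFP2). Bars are 95% counting intervals and dotted lines the medians of all genes. In poor wells 8 of 10 points lie below 0 (65.9% of all genes lie above 0), and all lie below the all-gene median of 1.12. On the right all points lie above 0, as do 77.2%, 76.4% and 64.5% of all genes in WT, YFP1 and YFP2.

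Within a genotype, the 10 genes differed strongly between wells of the 2 mitochondrial classes. In WT renin cells the summed level in poor over rich wells had a log2 ratio from 2.43 for Jun and 2.98 for Fosl2 to 6.62 for Ier3, 7.07 for Ier2 and 7.59 for Junb, with Fos at 4.33. All 10 were at or above 1, as were 69.7% of 14356 genes (15.4% were at or below -1), and 7 lay above the all-gene median of 3.55. Junb had 35990 counts in the 17 poor WT wells and 60 in the 34 rich ones. In Renin-null cells the ratios ran from 0.86 for Ier2 to 3.73 for Atf3, with 9 of 10 at or above 1 beside 58.1% of 17994 genes, and 8 above the all-gene median of 1.59. This excess over all genes depended on the limit and on 1 well: the medians of the 10 and of all genes were 0.91 and 0.91 at a limit of 10%, 3.77 and 3.93 at 50%, and 3.07 and 2.85 at 25% without the well that had 25.6% mitochondrial counts. By library, 10 of 10 were at or above 1 in YFP1 (68.9% of all genes) and 8 of 10 in YFP2 (51.5% of all genes), where Ier2 was at 0.28 and Jund at 0.67. Without that well, the null ratios of Ier2 and Jund were 3.18 and 2.12. Markers of other cells also differed between the classes in the pooled Renin-null wells. Collecting duct markers summed to 19.4 CPM in poor and 260 in rich wells, and proximal tubule markers to 289 and 508 CPM. Podocyte, endothelial, macrophage and fibroblast markers summed lower in rich wells. The part of these cells in the ratios was not tested.

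Mitochondrial counts are part of the total, so a well rich in them has less room for other messages. With those counts left out of the total, the median ratio of the 10 genes was 2.79 in WT and 1.89 in Renin-null cells, beside 2.17 and 0.66 for all genes. On this scale Fos was 7.75-fold higher in poor than in rich WT wells and 4.53-fold in the null cells, and Egr1 was 3.76-fold and 3.82-fold higher, while Ier2 in the null cells was at a log2 ratio of -0.07, with 84.01% of its rich-well counts in the well that had 25.6% mitochondrial counts. Detected genes per well moved with the same split, at medians of 5635 in poor and 3161 in rich WT wells and of 6368 and 2654 in Renin-null wells. What depth and cell quality contributed to the difference was not tested.

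Together the 10 genes took up 0.852% of WT counts, 0.787% of YFP1 counts and 0.991% of YFP2 counts. The share of a single well ran from 0.00481% through a median of 0.0825% to 2.11% in WT and from 0.00175% through 0.388% to 3.23% in Renin-null cells. In poor wells the medians were 0.769% in WT and 0.756% in Renin-null cells, and in rich wells 0.0374% and 0.138%. At least 5 of the 10 genes reached 100 CPM in 11 of 51 WT wells, all of them among the 17 poor wells, and in 47 of 96 Renin-null wells, 39 of the 60 poor and 8 of the 36 rich. In 12 WT wells and 12 Renin-null wells none of the 10 did. Several of the 8 rich Renin-null wells with at least 5 such genes were very shallow, at 3628 to 10121 counts. A single count there came to about 100 CPM or more, up to 276 CPM in the shallowest. The shallowest rich WT well had 67227 counts. The part of depth in this difference between rich wells was not tested.

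**Figure D3:**
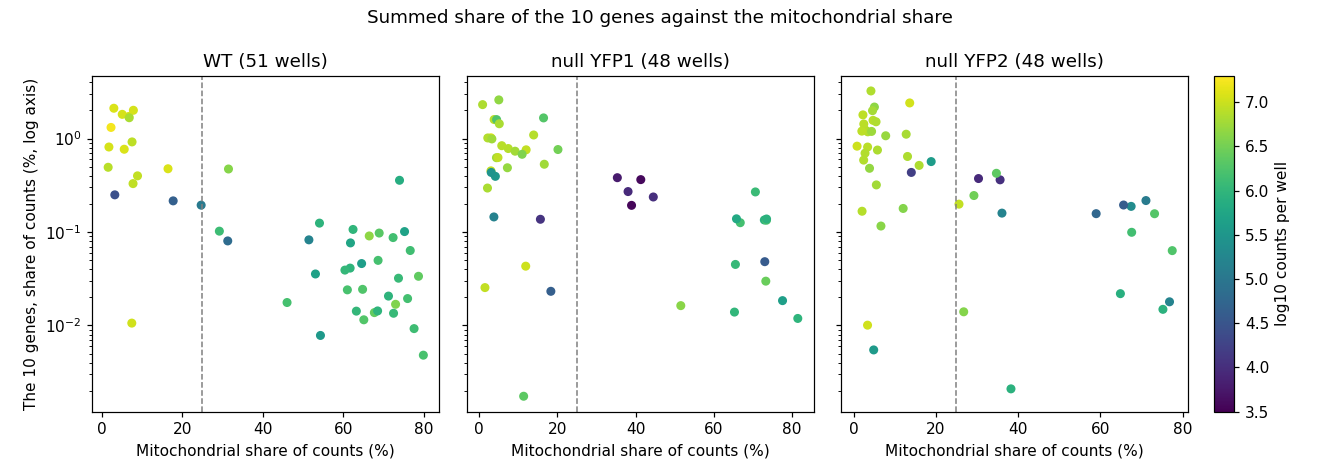
Share of a well's counts taken by the 10 genes (log axis, %) against its mitochondrial share (%), 1 panel per library, coloured by log10 counts, with the 25% limit dashed. The median share falls from 0.769% in poor to 0.0374% in rich WT wells and from 0.756% to 0.138% in Renin-null wells, and the median depth is lower in rich wells, though some of the shallowest wells are poor ones.

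Across wells the mean log2 level of the 10 genes went down as the mitochondrial share went up, with a Spearman rho of -0.69 in WT, -0.52 in YFP1 and -0.58 in YFP2. With mitochondrial counts left out of the scaling the values were -0.49, -0.33 and -0.44, and the rho with total counts was 0.43, 0.41 and 0.54. These correlations describe wells that share a library and a scaling, and carry no test. By gene, on the scaling without mitochondrial counts, Fos had -0.50, -0.45 and -0.37 and Jun -0.47, -0.29 and -0.38, while Fosl2 had 0.12, -0.08 and -0.25. Egr1 differed between libraries, at -0.51 in WT, 0.04 in YFP1 and -0.21 in YFP2.

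Few wells held most of the counts of each gene. At least 50% of Fos counts lay in 4 of 51 WT wells, 6 of 48 YFP1 wells and 7 of 48 YFP2 wells. For Junb, WT well 5 alone held 63.2% and 1 YFP1 well held 53.4%, while the highest YFP2 well held 18.0%. WT well 18 held 55.05% of Fosl2 counts, and single wells held 56.7%, 57.1% and 52.9% of the Ier3 counts of WT, YFP1 and YFP2. The same wells recurred: 1 well had the highest CPM of Fos, Jun and Egr1 in YFP2 (12681, 1808 and 15126 CPM), another that of Fos and Junb in YFP1 (19449 and 5660 CPM), and well 78 that of Jun and Egr1 in YFP1 (3710 and 6138 CPM). In WT, well 5 led in Fos and Junb (7134 and 2021 CPM) and well 47 in Atf3 and Jund (2076 and 212 CPM). Of the 30 highest wells, 1 for each gene and library, all but the Jund leader of YFP1, a well of 3849 counts, were mitochondria-poor.

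**Figure D4:**
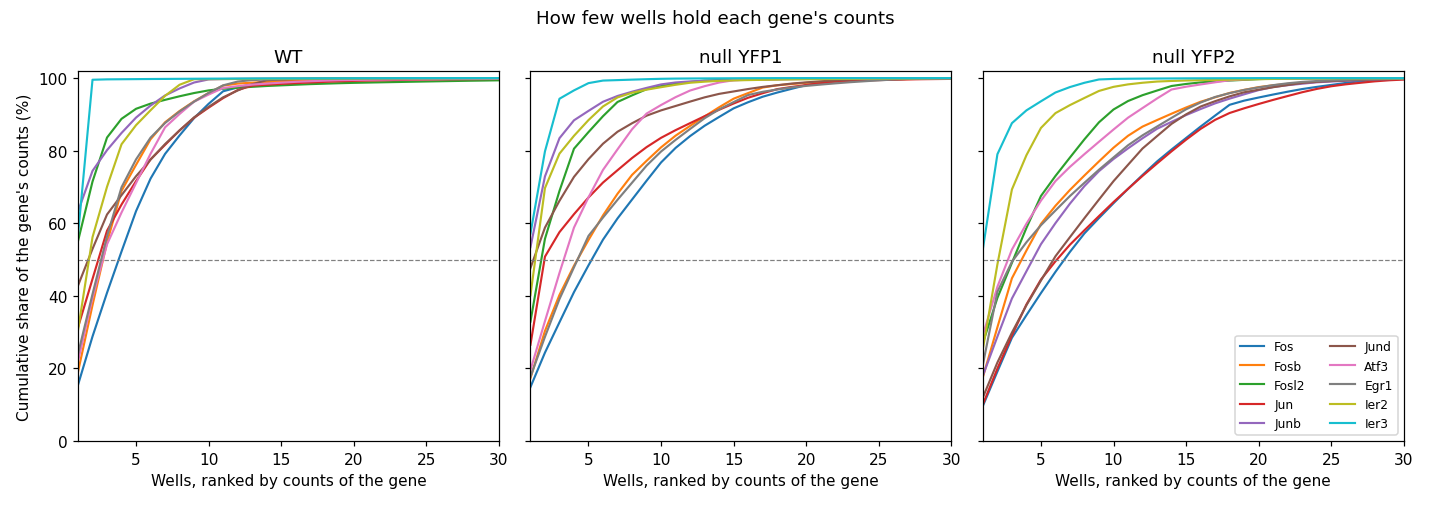
Cumulative share (%) of each gene's counts over wells ranked by their counts of that gene, 1 panel per library, first 30 wells. Junb in WT and YFP1, Fosl2 in WT and Ier3 in all 3 libraries start above 50% with 1 well, while Fos reaches 50% after 4, 6 and 7 wells.

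Most pairs of the genes varied together across wells, with rho above 0 for 38 of 45 pairs in WT, 45 in YFP1 and 44 in YFP2. Levels were scaled without mitochondrial counts. The median Spearman rho of the 45 pairs was 0.34 in WT, 0.27 in YFP1 and 0.29 in YFP2. After thinning to 62000 counts it was 0.35, 0.18 and 0.27, and within poor wells alone 0.23, 0.29 and 0.27. Jun with Egr1 had 0.54, 0.42 and 0.56, Fos with Jun, the classical AP-1 pair, 0.59, 0.40 and 0.66, and Fos with Atf3 0.36, 0.46 and 0.47. Fos with Egr1 was at 0.69 in WT and 0.59 in YFP2 but 0.25 in YFP1. The rho of Fosl2 with Fos was -0.13 in WT, 0.23 in YFP1 and 0.13 in YFP2, with Jund -0.17, 0.13 and -0.01, and with Fosb 0.05, 0.38 and 0.45. Points in these correlations are wells of 1 library, which share its depth range and mitochondrial classes. The counts of pairs above 0 have no background from pairs of other genes beside them.

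**Figure D5:**
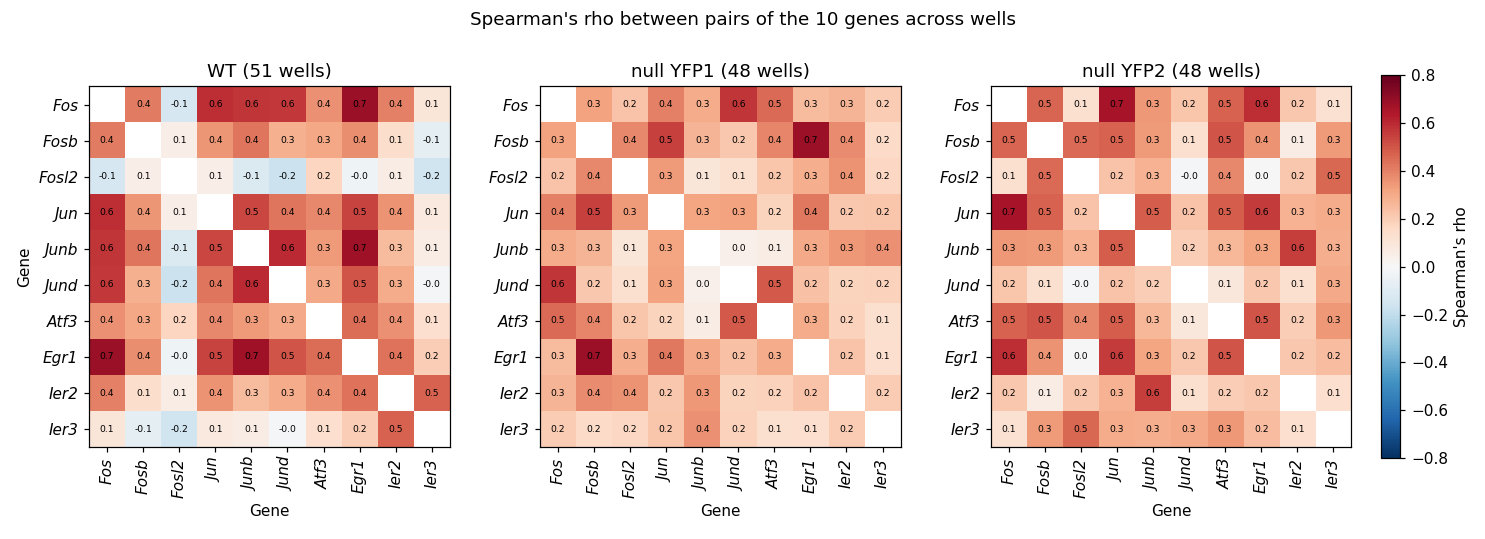
Spearman's rho between each pair of the 10 genes across the wells of a library (CPM without mitochondrial counts, not thinned), from blue below 0 to red above. Fos, Jun and Egr1 are linked in WT and YFP2 (0.54 to 0.69), while Fosl2 in WT is near or below 0 with most others.

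The genes whose level followed the mean of the 10 most closely in all 3 libraries were taken by their smallest rho, out of 3715 genes detected in 30% or more of the wells of each library. Lmna, which encodes lamins A and C of the nuclear envelope, came first with 0.61, 0.59 and 0.72 in WT, YFP1 and YFP2. Btg2, an antiproliferative gene of the immediate early class, followed with 0.78, 0.58 and 0.69, and Zfp36, whose protein destabilises messages rich in AU elements, with 0.62, 0.52 and 0.70. Myh11, smooth muscle myosin, had 0.73, 0.50 and 0.52. Map3k20, Cebpb, Midn, Rnase4 and Ubb-ps came next with smallest rho values of 0.50, 0.50, 0.49, 0.49 and 0.49, against a median of 0.11 over all 3715. Ubb-ps is a pseudogene of the ubiquitin gene Ubb, with which it can share reads.

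Genes of the wider pathway moved in both directions between genotypes, as all genes did (52.4% at or above 1 and 18.5% at or below -1). Of 25 other immediate early genes with a ratio, 12 were at or above 1 and 2 at or below -1, with a median of 0.86. Btg2 was at 1999, 2254 and 3748 CPM in WT, YFP1 and YFP2 (log2 ratio 0.62), Dusp1, a phosphatase that switches off MAP kinases, at 568, 502.7 and 671 CPM (0.06), and Zfp36 at 580, 445 and 655 CPM (-0.05). The orphan receptor gene Nr4a1, named after its values were seen, was at 628, 378 and 516 CPM (-0.47). Plk2 had the highest ratio of the list (7.71) and Ier5l the lowest (-3.63), with 72.3% of null Plk2 counts and 99.2% of WT Ier5l counts in 1 well each. Over the other AP-1 family genes, 6 of 12 were at or above 1 and 4 at or below -1, with a median of 1.48. Maf was at 0.80, Mafg, Mafk and Atf2 were at -1.16, -1.41 and -1.27, and 1 well held over 50% of the counts of Mafg and Atf2 in both genotypes. The background was 52.4% higher and 18.5% lower.

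Of the other Egr genes and their corepressors, 4 of 5 had a ratio, 2 were at or above 1 and none was at or below -1, with a median of 2.42. Egr2 was at 0.485 CPM in WT, 6.45 in YFP1 and 7.67 in YFP2 (log2 ratio 3.87), and was found in 1 of 51 WT and 24 of 96 null wells. Nab1, which binds Egr proteins and limits their activity, was at 114.1, 411 and 64.1 CPM, and 1 well held 78.3% of its WT and 81.4% of its null counts. Of the 18 upstream kinases and factors, 9 were at or above 1 and 6 at or below -1, beside 52.4% and 18.5% of all genes. Map2k1 was at 7.56 and Map2k7 at -3.16 as log2 ratios. In WT, Map2k1 was under 1 CPM, so its ratio rests on a low WT value. Of 8 feedback inhibitors with a ratio, 6 were at or above 1 and none at or below -1, among them Spry2 (50.2, 139.8 and 140.9 CPM; 1.48) and Spry4 (89.9, 151 and 238 CPM; 1.14), which dampen receptor tyrosine kinase signalling.

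The list of described AP-1 targets had 9 of 11 genes at or above 1 and none at or below -1, beside 52.4% and 18.5% of all genes, with a median of 7.84 in the pooled null wells, 3.13 in YFP1 and 2.74 in YFP2 (9 genes with a ratio). WT counts were few: Timp1, Hmox1 and Mmp2 were at 0, where the floor of 3 counts over the group makes the ratio a lower bound, and Plaur, Cd44, Spp1 and Plau had 2, 3, 5 and 19 counts. Spp1, which encodes osteopontin, was at 0.0253 CPM in WT (5 counts), 2159 in YFP1 and 672 in YFP2, with 66.7% of null counts in 1 well and a median of 0.190 CPM in YFP1 wells. Vim, the most abundant of the list in WT, was at 435, 283 and 406 CPM (-0.32), and Lox at 93.2, 230 and 10.1 CPM (0.24) with 94.6% of null counts in 1 well. Of 11 heat shock genes, which are also induced by dissociation, 3 were at or above 1 and 2 at or below -1, beside the same shares of all genes. Hspa8 was at 2170, 3414 and 3591 CPM (0.69), Hsp90ab1 at 862, 1424 and 1271 CPM (0.64) and Hsp90aa1 at 1308, 576 and 444 CPM (-1.38).

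Within genotype, the related lists were higher in mitochondria-poor wells by their medians, as all genes were. Of the other immediate early genes, 22 of 24 in WT and 20 of 25 in Renin-null cells were at or above 1 in poor over rich wells, with medians of 6.23 and 2.97. Of the heat shock genes, 9 of 11 and 6 of 11 were, with medians of 3.76 and 1.11, and of the renin cell and mural markers 9 of 9 and 7 of 9, with medians of 3.12 and 1.54. Over all genes the shares were 69.7% and 58.1% and the medians 3.55 and 1.59, so the medians of the mural markers, and that of the heat shock genes in null cells, lay below those of all genes. Some marker lists of other cells went the other way in Renin-null cells. Their medians were -1.23 for proximal tubule, -1.45 for loop and distal tubule, -3.05 for collecting duct and -1.24 for macrophage markers. Those of podocyte, endothelial and fibroblast markers were above 0.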

How the data were processed

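Single YFP-positive kidney cells (51 WT and 96 Renin-null) were sequenced with SMART-Seq v4 on the Fluidigm C1 System and Nextera XT, without molecular identifiers. The authors trimmed reads with Trimmomatic (0.39 in the submitters' processing notes, which also list FastQC 0.11.5), quantified them with Salmon (0.11.2) on GRCm38.p6 (mm10) and ENSEMBL transcripts, and summed to genes with tximport (lengthScaledTPM). The authors deposited expected counts per gene and well, scaled for transcript length and not for depth, so the value of a gene can differ from its raw number of reads.

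Expected counts were rounded, summed over the wells of a group and scaled to counts per 1000000 counts (CPM). Log2 ratios carry an exact conditional 95% interval that covers counting error only. Where a group had no count, 3 were entered over the group, and a gene had no ratio if neither group had more than 3. Cells are not replicates and each genotype was 1 sample, so no p-value is given; a log2 ratio of 1 in size marked a gene as higher or lower, and the share of all genes past it is given as background. Single-well values have no pseudocount except in log2(CPM + 1). Mitochondria-rich wells had over 25% of counts from 13 genes. Alternatives included edgeR 4.0.16 (TMM), SCTransform (sctransform 0.4.2, Seurat 5.3.0, mitochondrial share regressed), thinning to 62000 counts (2 WT and 13 null wells were too shallow) and a cell filter (at least 100000 counts and 1000 genes, at most 25% mitochondrial counts). Near-identical wells were found by Pearson correlation of log2(CPM + 1). The ratio function was tested on simulated data.

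The members, the gene lists and the limits were chosen with earlier results of these data known. All 10 members are reported. From each list the 3 most abundant genes and those with the highest and lowest ratio were named, where at least 20% of the cells of the higher genotype had a count, and the 10 genes most like the members by the smallest of 3 rho values. A few genes that this rule names are not reported here. Of the listed genes, 4 were not found under their symbol. GENCODE M21 gave gene positions and transcripts, and RefSeq (GRCm38.p6) the upstream windows.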

Additional observations from a re-analysis of the deposited data

Results flagged for a closer look

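Some genes had ratios of opposite sign in groups set against WT, and none of these differences was tested. Between the null libraries, the log2 ratio over WT of Junb was 0.59 in YFP1 and -0.73 in YFP2, a difference of -1.32, and that of Fosl2 was 0.08 and -0.04, a difference of -0.12. These comparisons share the WT wells. The opposite signs of Junb rested largely on single wells: well 100 held 26589 of the 49784 Junb counts of YFP1, and WT well 5 held 22790 of the 36050 of WT. Between mitochondrial classes, the Renin-null over WT ratio was below 0 in poor wells and above 0 in rich wells for 6 genes. The ratio in rich wells less that in poor wells was 1.36 for Fosb, 0.87 for Fosl2, 4.54 for Junb, 3.17 for Jund, 6.21 for Ier2 and 3.19 for Ier3. With the null well of 25.6% mitochondrial counts left out, the rich-well ratio of Ier3 was -1.86, on the same side of 0 as in poor wells, and those of Ier2, Junb and Jund were 2.31, 3.83 and 1.26. Without the highest well of each gene in each genotype, Fosb, Fosl2 and Junb were above 0 in poor wells too (0.06, 0.72 and 0.46), Ier3 was below 0 in both classes (-0.10 in poor and -1.34 in rich wells), and the difference for Fosl2 turned, with 0.13 in rich wells. In rich WT wells Ier3, Ier2, Junb and Jund had 40, 55, 60 and 96 counts in all.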

How the results depend on the processing

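No paired analysis was possible because the genotypes share no replicate number. The median log2 ratio of the 10 genes, Renin-null over WT (-0.07), moved with the class of wells, the weighting of wells and the scaling. It was 0.75 for the mean over cells of CPM, 0.81 for the difference of mean log2(CPM + 1), 0.70 for SCTransform-corrected counts, 0.60 after thinning and 0.24 without the highest cell of each gene. It was -0.23 without mitochondrial counts, -0.77 with TMM factors, -0.042 for YFP1 and -0.16 for YFP2 alone, -0.29 under the cell filter, -0.28 in mitochondria-poor and 1.33 in mitochondria-rich wells, -0.046 with near-identical wells counted once and -0.054 without the 2 wells with discordant labels. In settings chosen after seeing the data, the difference of mean log2(CPM + 1) was -0.56 in poor and 0.67 in rich wells, the median without the highest cell of each gene was 0.00089 in poor and 1.51 in rich wells, and 0.86 in rich wells without the null well of 25.6% mitochondrial counts. The count of genes above the all-gene median (0) was 7 for the difference of mean log2(CPM + 1), 1 after thinning, 1 for YFP2 alone, 3 in rich wells and, in added settings, 1 among genes at or above 100 CPM, 3 and 7 for the difference of mean log2(CPM + 1) in poor and rich wells, and 4 in rich wells without the highest cells or without that well. The poor over rich median in WT (4.17) was 2.95 and 4.84 at limits of 10% and 50%, 3.90 for the mean over cells, 3.33 for the difference of logs, 2.79 without mitochondrial counts and 4.80 without the highest cells. In Renin-null cells (2.82) it was 0.91 and 3.77 at those limits, 2.41, 1.96 and 1.89 for the same 3 scalings, 2.77 after thinning, 3.80 in YFP1, 2.40 in YFP2 and, added later, 3.07 without that well. Fos was above 0 in 18 of 19 settings (-0.37 with TMM). Ier2, the only ratio past the limit (-1.25), was above 0 in 5 of 19: 0.059 for the difference of mean log2(CPM + 1) over all wells, and in rich wells 4.63 summed, 0.45 for the difference of logs, 2.40 without the highest cells and 2.31 without that well. It was -0.27 after thinning. Why the settings differ was not tested, and the shallowest wells limit the genes of lower CPM.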

Other observations

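The 4 near-identical pairs of Renin-null wells had correlations of 0.987, 0.987, 0.984 and 0.974 over log2(CPM + 1), with total counts of 7446990 and 6382994 in the first pair and 3944685 and 8860613 in the last. For 3 of the pairs 1 well carried the YFP1 label and 1 the YFP2 label, and 92 Renin-null wells are left when each pair counts once. Their origin was not tested.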
